A study of Mus musculus with 24 samples.

Results

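The 3 *tfeb tfe3* DKO libraries made at passage 8 were compared with the 9 *tfeb tfe3* DKO libraries made at passages 9, 10 and 11, so that 12 of the 24 libraries of the series entered the comparison. The libraries were grouped by the genotype and passage recorded for each sample, and no measured value set the groups. The choice of members and gene lists was made with earlier results of these data known. Each passage held 1 library per treatment: vehicle (DMSO), torin1, an ATP-competitive inhibitor of both MTOR complexes, and MK-8722, an allosteric activator of AMPK. All 12 libraries came from mouse embryonic fibroblasts (MEFs) that carry the knockout of both *Tfeb* and *Tfe3*, received by the study from another laboratory, and polyadenylated RNA was sequenced. How many clones they represent is not given in the sources used here. The other 12 libraries, WT MEFs of passages 7, 8, 9 and 11 under the same 3 treatments, served only to ask whether the passage 8 difference was also present there. Passage 8 was represented by 1 library in each treatment, and the sample records do not say whether the 3 came from separate cultures, so p-values measure the spread between libraries, which may be technical, and a passage cannot be told apart from the culture or day it was taken on.

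Passage number counts how often cultured cells have been split, and fibroblasts in long culture drift in matrix, growth and stress genes. ATF4 is a transcription factor whose translation rises when EIF2A is phosphorylated during amino acid shortage or other stress, and whose synthesis is also promoted by MTORC1. It switches on amino acid transporters, enzymes that make serine, glycine, cysteine and proline, and the aminoacyl-tRNA synthetases that load tRNAs. Torin1 stops MTORC1 and is known to lower this set of genes. Sterol synthesis genes, under SREBF1 and SREBF2, are likewise supported by MTORC1.

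Library totals ran from 24668921 to 28891361 counts at passage 8 and from 25766424 to 30179425 at the later passages, and mitochondrially encoded transcripts took 0.786% to 0.919% and 0.767% to 0.857% of them. RNA integrity numbers were 9.7 to 9.8 at passage 8 and 7.9 to 9.9 later. *Tfeb* stood at 1.59 to 2.14 CPM (counts scaled to a common library total) in the passage 8 libraries and at 1.30 to 2.58 CPM in the later ones, against 14.001 to 24.96 CPM in WT. *Tfe3* RNA did not mark the genotype, with 87.3 to 119 CPM at passage 8 and 77.4 to 122 CPM in WT. Of 25 genes at 5 CPM or more in every WT library and at most 0.1 CPM in the later DKO libraries, 18 had no count in any passage 8 DKO library and the highest of the rest reached 0.27 CPM (*Tenm3*). The fibroblast genes *Col1a1*, *Vim* and *Pdgfrb* were abundant in all 12 libraries, whereas *Thy1* was detected in 1 of them, at 0.0374 CPM. Of 17 immune, 12 epithelial and 10 endothelial markers, 14, 10 and 9 stayed under 1 CPM in every library. The summed levels were 11.3 to 15.6 CPM at passage 8 and 12.2 to 19.9 CPM later for the immune list, 42.1 to 57.9 and 46.3 to 70.005 CPM for the epithelial list, and 7.70 to 9.06 and 6.27 to 8.07 CPM for the endothelial list. Of 14 muscle and neural markers 8 stayed under 1 CPM in every library, and the list summed to 315 to 408 CPM at passage 8 and 291 to 409 CPM later, with *Tubb3* at 10.4 to 22.9 CPM and *Map2* at 12.5 to 27.8 CPM over the 12 libraries. The part of these levels and of RNA integrity in the results was not tested.

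Passage 8 differed from the later passages at 434 of 14106 genes tested (3.08%), with 242 higher (1.72%) and 192 lower (1.36%) (edgeR quasi-likelihood test with treatment as covariate, calls at Benjamini-Hochberg adjusted p-values below 0.05 with changes of 1.2-fold or more). Most of the changes were small: the median size was 0.36 on the log2 scale for the higher genes and 0.40 for the lower ones, and 16 genes in each direction changed by 1 or more. The passage 8 library stood above all 3 later libraries in each of the 3 treatments for 182 of the 242 higher genes (9.25% of all genes did so), and below them for 176 of the 192 lower genes (7.08% of all genes). The genes were called from these same libraries, so the excess over all genes follows from the selection and is a description only. Scaling by library size alone gave 194 higher and 238 lower genes, so the share of higher calls went from 55.8% to 44.9%. The counts rested on the DMSO and MK-8722 libraries of passage 8: without the DMSO library they were 53 higher and 38 lower, and without the MK-8722 library 9 higher and 2 lower. When the 3 treatments were summed to 1 library per passage, 6 genes were higher and 1 lower. In bulk RNA, fewer cells of a kind and less RNA per cell cannot be told apart.

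The group that rose most broadly was the ATF4 target list: 23 of its 39 tested genes were higher at passage 8 and none was lower, against the 1.72% of all genes called higher, with a median log2 fold change of 0.34 over the list and 0.00 over all genes. The list was written with earlier results of these data known and named 41 genes, of which 39 passed the filter on low counts. At an unadjusted p under 0.05 (edgeR) 33 of them were higher, against 1885 of all 14106 genes. Promoters of 4 of the called genes are shown because they are the most significant ones whose RefSeq promoter (GRCm38.p6, 250 bases before to 50 after the start, written in the direction of transcription) holds the letters TGATGNAA on either strand, the core of the element that ATF4 and C/EBP proteins recognise. Capitals mark each match.
Vldlr (chr19:27216770-27217069, plus strand): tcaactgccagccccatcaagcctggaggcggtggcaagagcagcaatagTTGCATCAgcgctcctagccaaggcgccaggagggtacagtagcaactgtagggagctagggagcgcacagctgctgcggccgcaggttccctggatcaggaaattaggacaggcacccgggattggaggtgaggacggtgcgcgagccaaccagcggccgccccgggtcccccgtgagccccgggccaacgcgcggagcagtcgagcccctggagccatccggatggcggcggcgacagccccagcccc
Slc7a11 (chr3:50443564-50443863, minus strand): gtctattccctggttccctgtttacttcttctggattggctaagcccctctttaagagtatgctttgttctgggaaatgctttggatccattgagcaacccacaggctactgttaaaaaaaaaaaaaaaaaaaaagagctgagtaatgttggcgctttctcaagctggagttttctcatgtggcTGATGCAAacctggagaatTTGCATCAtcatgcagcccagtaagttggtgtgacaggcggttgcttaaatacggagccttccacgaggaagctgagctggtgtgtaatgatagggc
Trib3 (chr2:152344011-152344310, minus strand): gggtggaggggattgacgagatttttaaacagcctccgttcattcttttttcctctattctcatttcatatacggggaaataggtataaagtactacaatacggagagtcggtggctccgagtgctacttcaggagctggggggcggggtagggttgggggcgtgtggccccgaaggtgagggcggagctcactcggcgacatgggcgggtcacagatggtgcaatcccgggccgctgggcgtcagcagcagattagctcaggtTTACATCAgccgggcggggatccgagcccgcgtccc
Gars (chr6:55037751-55038050, plus strand): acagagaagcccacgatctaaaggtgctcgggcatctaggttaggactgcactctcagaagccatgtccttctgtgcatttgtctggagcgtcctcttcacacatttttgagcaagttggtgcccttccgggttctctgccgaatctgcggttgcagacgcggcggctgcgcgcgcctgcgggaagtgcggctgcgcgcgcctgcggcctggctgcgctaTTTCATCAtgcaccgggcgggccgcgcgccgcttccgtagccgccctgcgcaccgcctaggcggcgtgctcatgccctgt
The *Slc7a11* promoter held 2 matches, the first starting 66 bases before the start site, and the match of *Trib3* began 14 bases after it. The letters were found in 6 of 17 called ATF4 targets with a promoter in the table (35.3%) and in 12 of 31 tested ones (38.7%), against 259 of 9860 tested genes (2.63%) and 3.97% of all 32851 promoters. A match is a description of these letters and not a bound site.

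The 3 largest changes within the list were those of *Cth*, *Slc7a11* and *Slc6a9*. *Cth* (GRCm38 chromosome 3, 157894248 to 157925077), which encodes the enzyme that releases cysteine from cystathionine, stood in DMSO at 46.3 against 19.8, 19.4 and 14.5 CPM at passages 8, 9, 10 and 11, and in MK-8722 at 49.9 against 17.5, 14.1 and 12.03 CPM. In torin1 it stood at 3.42 against 4.07, 3.09 and 3.59 CPM. The passage 8 library was the highest in DMSO and MK-8722 and lay inside the later range in torin1, and the log2 fold change over the 3 treatments was 1.32 ± 0.19 (SE; edgeR adjusted p = 0.00334). *Slc7a11* (GRCm38 chromosome 3, 49892526 to 50443614), the cystine transporter, stood at 29.4 against 16.2, 17.9 and 18.8 CPM in DMSO, 29.2 against 13.3, 8.85 and 8.499 CPM in MK-8722 and 1.07 against 0.504, 0.798 and 0.888 CPM in torin1. Its passage 8 library was the highest in each treatment, at a log2 fold change of 1.08 ± 0.16 (edgeR adjusted p = 0.00334). *Slc6a9* (GRCm38 chromosome 4, 117834506 to 117875198), a glycine transporter, stood at 133 against 70.5, 56.8 and 65.5 CPM in DMSO, 145 against 66.4, 42.5 and 48.5 CPM in MK-8722 and 12.4 against 11.2, 11.1 and 11.9 CPM in torin1. Its log2 fold change was 1.03 ± 0.16 (edgeR adjusted p = 0.00438), and the torin1 libraries spanned a narrow range. The subunits of the large neutral amino acid transporter, *Slc7a5* and *Slc3a2*, rose by 0.50 and 0.39 on the log2 scale (edgeR adjusted p = 0.00934 and 0.00689).

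Stress regulators and secreted products of the same list followed. *Trib3* (GRCm38 chromosome 2, 152337422 to 152344032), a pseudokinase induced by ATF4 and DDIT3, stood at 96.1 against 65.2, 76.03 and 76.6 CPM in DMSO, 111 against 50.1, 37.3 and 44.6 CPM in MK-8722 and 5.73 against 3.60, 4.02 and 4.58 CPM in torin1. Its log2 fold change was 0.84 ± 0.14 (edgeR adjusted p = 0.00596), and passage 8 was the highest in each treatment. *Stc2* (GRCm38 chromosome 11, 31357307 to 31370074), a secreted glycoprotein, stood at 30.1 against 18.6, 19.5 and 15.5 CPM in DMSO, 32.2 against 17.3, 15.8 and 15.5 CPM in MK-8722 and 2.93 against 2.41, 2.88 and 2.34 CPM in torin1. It had the smallest p of the list, with a log2 fold change of 0.77 ± 0.10 (edgeR adjusted p = 0.00262). *Vldlr*, the receptor for very low density lipoprotein, rose by 0.79, *Ddit3* (CHOP) by 0.48, *Atf5* by 0.51, *Cebpg* by 0.34 and *Atf4* itself by 0.30 on the log2 scale. The tRNA synthetase genes *Nars*, *Gars*, *Sars*, *Aars*, *Wars* and *Lars* rose by 0.34, 0.36, 0.35, 0.32, 0.44 and 0.31 on the log2 scale. The serine synthesis genes *Phgdh* and *Psat1* did not pass, at 0.17 ± 0.07 and 0.12 ± 0.07 (edgeR adjusted p = 0.137 and 0.303), and neither did *Atf3*, *Ddit4* or *Nupr1*, at -0.02, -0.07 and -0.05.

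**Figure D1:**
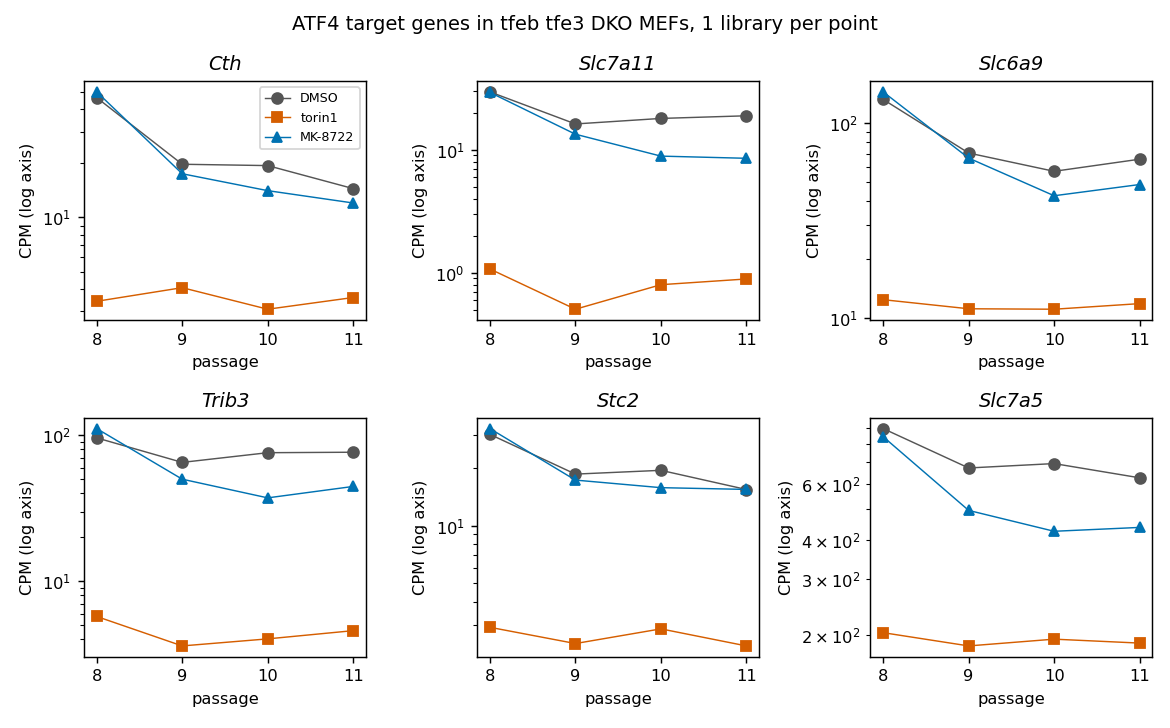
CPM (log axis) of 6 ATF4 target genes in each of the 12 *tfeb tfe3* DKO libraries, by passage, with 1 point per library and 1 colour per treatment. In DMSO and MK-8722 the passage 8 point is the highest for all 6 genes, and in torin1, where all 6 genes lie lower, it is the highest for 5 of them and inside the later range for *Cth*. The rule that named *Slc7a11*, *Slc6a9*, *Trib3* and *Stc2* asked for a passage 8 library outside the later range in every treatment.

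Whether torin1 erased the difference was asked within each treatment. The mean log2 CPM over the 39 ATF4 targets stood at passage 8 above the later libraries by 0.358 in DMSO (7.27 against 6.92 ± 0.02, SD, n = 3), by 0.664 in MK-8722 (7.31 against 6.64 ± 0.082, n = 3) and by 0.069 in torin1 (5.41 against 5.34 ± 0.029, n = 3). In torin1 the passage 8 value still lay above the later range of 5.31 to 5.36, but the size was a small part of that in the other treatments. The passage 8 library was the highest of its treatment for 34 of the 39 genes in DMSO, 37 in MK-8722 and 18 in torin1, where 29% of all genes in DMSO, 32.2% in MK-8722 and 29% in torin1 were. The median log2 fold change was 0.36 in DMSO, 0.60 in MK-8722 and 0.04 in torin1. Torin1 lowered the same genes at the later passages, by a median of 1.39 on the log2 scale (a log2 change of -1.39), with 36 of 39 called lower, while 22.4% of all genes were called lower and 45.6% in either direction. MK-8722 lowered 19 of the 39 at the later passages, with a median log2 change of -0.29 (4.61% of all genes were called lower and 6.52% higher). In torin1 the list lay between 5.31 and 5.41 at all 4 passages, under every DMSO and MK-8722 library.

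The difference between treatments was tested gene by gene, as the passage 8 effect under torin1 minus the mean effect under DMSO and MK-8722. It was negative for 36 of the 39 ATF4 targets, with a median of -0.41, and 30 of them passed an unadjusted p under 0.05, but none was called after adjustment over all genes (edgeR; lowest adjusted p = 0.0899, *Gars*). Within the list *Cth* had the largest contrast, -1.64 ± 0.32 (edgeR adjusted p = 0.148). The number called depended on the model: with passage as a block in the same edgeR test 16 of the 39 were called smaller under torin1, DESeq2 called 18, and limma voom called none.

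**Figure D2:**
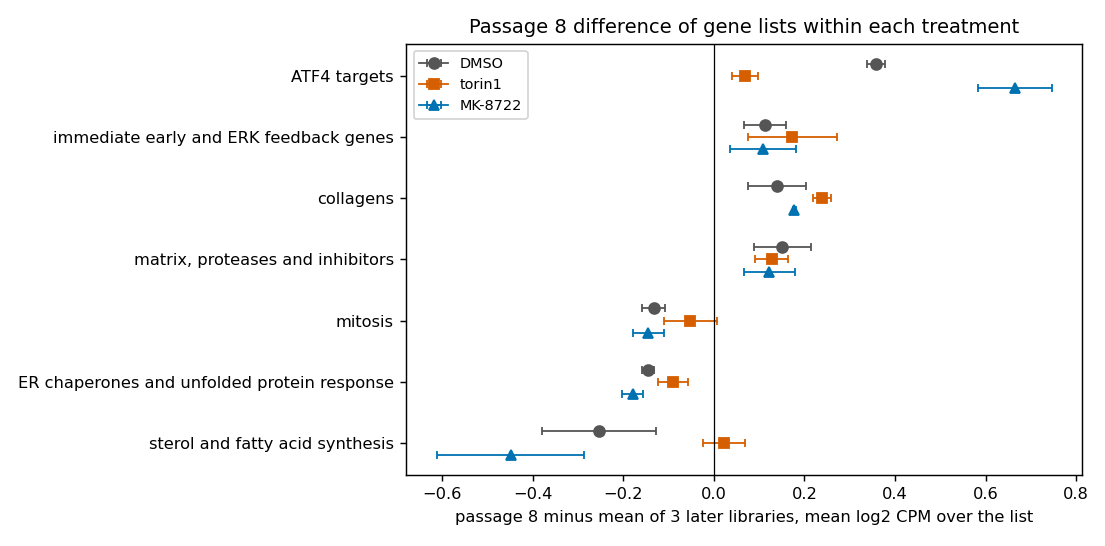
Passage 8 library minus the mean of the 3 later libraries for 7 gene lists in each treatment, as mean log2 CPM over the list (horizontal axis), with bars giving the SD of the 3 later libraries. The ATF4 and sterol lists lie near 0 in torin1 and away from it in DMSO and MK-8722. The mitosis and ER chaperone lists also lie nearer to 0 in torin1, at -0.051 and -0.090. Every list drawn except the sterol list has the same sign in all 3 treatments.

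Genes were also selected without torin1 and then read in it. From the DMSO and MK-8722 libraries alone, 301 genes were called higher (2.13%) and 216 lower (1.53%) at passage 8. Among the 301, the torin1 passage 8 library lay above the later torin1 mean for 234 (77.7%, against 52.1% of all genes), with a median log2 difference of 0.10, compared with 0.33 in DMSO and 0.47 in MK-8722. Among the 216, it lay below for 169 (78.2%, against 47.9% of all genes), with a median of -0.14, compared with -0.37 in DMSO and -0.42 in MK-8722. The DMSO and MK-8722 values chose these genes, so smaller values in the treatment left out follow in part from the selection, and the sizes are given as a description only. The 29 ATF4 targets among the 301 went from 0.51 in the selecting fit to 0.067 in torin1, where 21 of the 29 were positive, and the other 272 genes went from 0.38 to 0.11, where 213 were positive. Selecting without DMSO or without MK-8722 left 12 and 19 higher genes (0.0851% and 0.135% of all genes). These were read in the treatment left out at medians of 0.44 and 0.38. Each selection left 5 lower genes (0.0354%), read at medians of -0.33 and -0.31, with 4 and 5 of them negative. The torin1 libraries helped to choose these smaller sets, so their medians cannot be compared with the 0.10 in torin1.

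**Figure D3:**
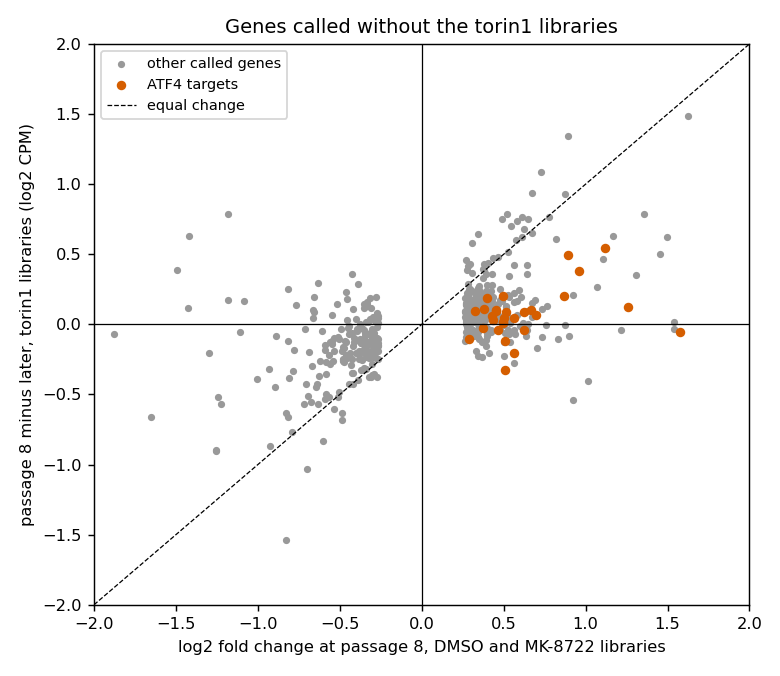
Each point is a gene called at passage 8 from the DMSO and MK-8722 libraries alone, with its log2 fold change there (horizontal axis) and its passage 8 minus later difference in torin1 (vertical axis, log2 CPM). 512 genes are drawn and 5 lie beyond the axes, with ATF4 targets in orange. The horizontal values selected the genes, so that points closer to 0 on the vertical axis than the dashed line of equal change follow in part from the selection.

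Several of the called genes outside the ATF4 list had estimates in torin1 close to those in the other treatments. They were called with the torin1 libraries in the fit, so this follows in part from the selection. The rule for the largest rises also asked for a passage 8 library outside the later range in every treatment. *Plpp3* (GRCm38 chromosome 4, 105157347 to 105232764), a membrane enzyme that removes phosphate from bioactive lipids, stood at 11.8 against 6.56, 8.25 and 4.9998 CPM in DMSO, 31.4 against 16.3, 20.3 and 13.4 CPM in torin1 and 12.2 against 6.09, 7.47 and 5.90 CPM in MK-8722. Passage 8 was the highest in each treatment, the log2 fold change was 0.89 ± 0.13 (edgeR adjusted p = 0.00334), and the torin1 contrast was 0.04 ± 0.28. *Pdgfra* (GRCm38 chromosome 5, 75152292 to 75198215), the fibroblast receptor for platelet-derived growth factor, stood at 32.3 against 23.4, 22.3 and 19.8 CPM in DMSO, 171 against 119.9, 113 and 75.4 CPM in torin1 and 21.8 against 15.1, 13.3 and 12.7 CPM in MK-8722. Its log2 fold change was 0.67 ± 0.11 (edgeR adjusted p = 0.00552), with 0.74 in torin1 alone. Its level was lower at each successive passage from 8 to 11 in every treatment. *Sorcs2*, a sorting receptor, rose by 0.74, *Enpp1*, an ectonucleotidase, by 0.75 and *Nt5e* (CD73), which makes adenosine, by 1.24 on the log2 scale. The estimates of *Nt5e* were 1.32 in DMSO, 1.70 in MK-8722 and 0.62 in torin1, and its torin1 contrast did not pass, at -0.89 ± 0.54 (edgeR adjusted p = 0.84).

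Of the collagens, 4 of 19 were higher and none lower, against 1.72% and 1.36% of all genes. *Col12a1* (GRCm38 chromosome 9, 79598991 to 79718831), a fibril-associated collagen, stood at 65.7 against 48.8, 43.8 and 33.6 CPM in DMSO, 88.5 against 59.7, 59.5 and 40.8 CPM in torin1 and 64.7 against 48.8, 42.03 and 31.6 CPM in MK-8722. Its levels also declined with passage in each treatment, and its log2 fold change was 0.68 ± 0.13 (edgeR adjusted p = 0.00842). *Col18a1*, *Col3a1* and *Col6a3* rose by 0.61, 0.57 and 0.94 on the log2 scale, and the estimates of the 4 collagens in torin1 alone lay between 0.42 and 1.26. The main fibrillar collagens were not among them: *Col1a1* and *Col1a2* stood at -0.09 ± 0.11 and 0.07 ± 0.11 (edgeR adjusted p = 0.66 and 0.766). Of 33 matrix, protease and inhibitor genes, 6 were higher and none lower (1.72% and 1.36% of all genes): *Postn*, *Mgp*, *Mmp13*, *Tnc*, *Fn1* and *Fbln2*, by 1.06, 0.87, 0.63, 0.38, 0.36 and 0.29 on the log2 scale. *Fn1*, fibronectin, stood at 1707 against 1379, 1324 and 1178 CPM in DMSO, 3658 against 2836, 3279 and 2632 CPM in torin1 and 1880 against 1569, 1552 and 1290 CPM in MK-8722, with passage 8 the highest each time. The estimates of the 6 matrix genes in torin1 alone ran from 0.17 (*Fbln2*, against 0.31 in DMSO and 0.38 in MK-8722) to 1.36 (*Postn*). The median over the list was 0.08 for matrix genes and 0.09 for collagens. Within treatments, the collagen median was -0.02 in DMSO, 0.09 in torin1 and 0.10 in MK-8722, with 9, 15 and 12 of the 19 genes positive.

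**Figure D4:**
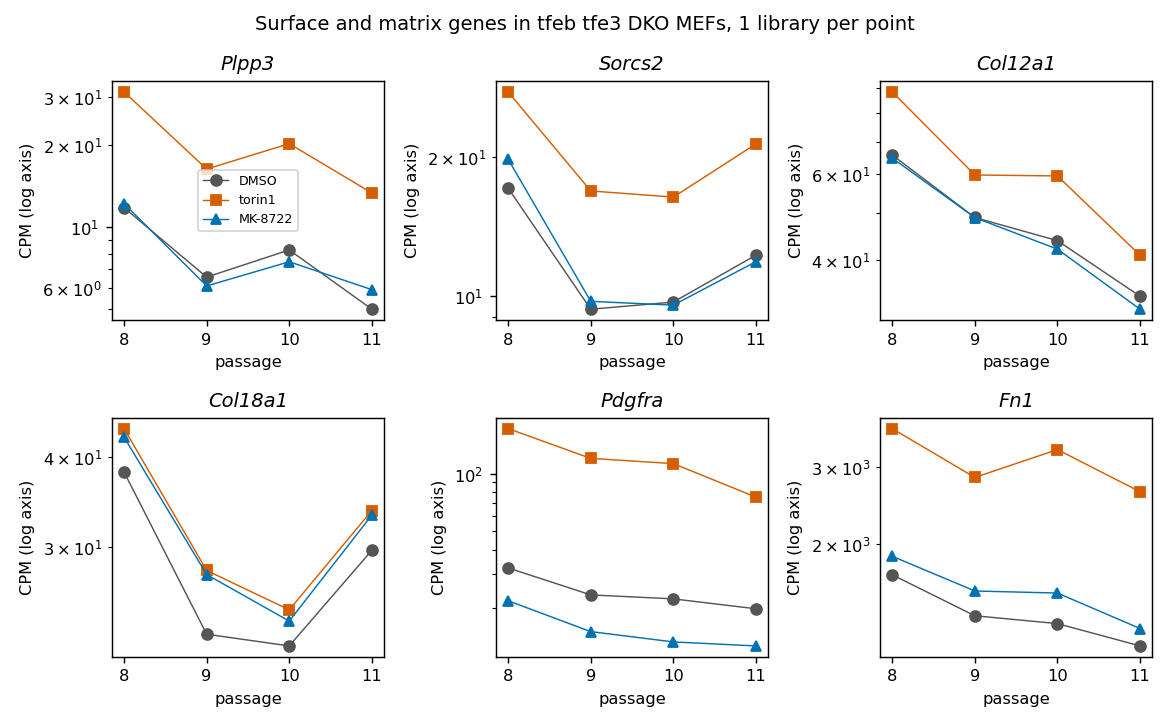
CPM (log axis) of 6 surface and matrix genes in each of the 12 *tfeb tfe3* DKO libraries, by passage, with 1 point per library and 1 colour per treatment. The passage 8 point is the highest of its treatment for all 6 genes, torin1 included. The rule that named *Plpp3*, *Sorcs2* and *Col12a1* asked for this in every treatment. All 6 genes were called with the torin1 libraries in the fit, so the pattern follows in part from the selection.

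Of 28 immediate early and ERK feedback genes, 5 were higher and none lower, against 1.72% and 1.36% of all genes, and the list median was 0.07. The 5 were *Dusp6*, a phosphatase that limits ERK, *Fosl1*, *Etv5*, *Myc* and *Ier2*, which rose by 0.53, 0.40, 0.39, 0.38 and 0.28 on the log2 scale. *Dusp6* stood at 26.9 against 19.1, 19.98 and 16.4 CPM in DMSO, 32.9 against 23.8, 23.7 and 21.5 CPM in torin1 and 26.6 against 18.5, 21.1 and 15.8 CPM in MK-8722, and its log2 fold changes in the 3 treatments were 0.54, 0.52 and 0.52. In torin1 alone *Fosl1*, *Myc* and *Ier2* stood at 0.42, 0.28 and 0.25. *Etv5* stood at 0.12 there, against 0.44 in DMSO and 0.59 in MK-8722, and its torin1 contrast, -0.39 ± 0.16 (edgeR adjusted p = 0.71), was not called, whereas with passage as a block it was (edgeR adjusted p = 0.0295). *Junb* was not called, at -0.11, and *Klf6*, at 0.18, passed the adjusted p (edgeR, 0.00967) but not the fold threshold. Of 34 glycolysis and hypoxia genes 3 were higher and 2 lower, against 1.72% and 1.36% of all genes, with a median of -0.08. At an unadjusted p under 0.05 (edgeR) 6 were higher and 14 lower, against 1885 and 1586 of all 14106 genes. *Ndrg1* and *Vegfa*, known hypoxia targets, rose by 0.36 and 0.34, with 0.23 and 0.42 in torin1, and *Pfkm*, a glycolytic enzyme of the same list, fell by 0.28.

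The lower genes were of several kinds. Of 34 sterol and fatty acid synthesis genes, 3 were lower and none higher, against the 1.36% of all genes called lower. At an unadjusted p under 0.05 (edgeR) 20 were lower, against 1586 of all 14106 genes. *Scd2* (GRCm38 chromosome 19, 44293674 to 44306864), a stearoyl-CoA desaturase, stood at 232 against 299, 390.4 and 542 CPM in DMSO, 76.02 against 85.8, 101.6 and 127 CPM in torin1 and 304 against 419.7, 576 and 783 CPM in MK-8722. Passage 8 was the lowest each time and levels rose at every passage, and the log2 fold change was -0.75 ± 0.19 (edgeR adjusted p = 0.0307). *Mvd* and *Lss*, enzymes of the mevalonate and lanosterol steps, fell by 0.51 and 0.42. The mean log2 CPM of the sterol list at passage 8 was lower by 0.254 in DMSO and by 0.448 in MK-8722 and higher by 0.023 in torin1, beside SDs of the later libraries of 0.126, 0.163 and 0.047. It rose at every passage from 8 to 11 in DMSO (5.65 to 6.04) and MK-8722 (5.89 to 6.50). At the later passages torin1 lowered 28 of the 34 genes and raised 2, with a median log2 change of -0.79 (22.4% of all genes were called lower and 23.2% higher). The passage 8 library was the lowest for 30 of 34 genes in DMSO, 32 in MK-8722 and 9 in torin1 (29.5%, 30.2% and 26.2% of all genes). No sterol gene was called in the torin1 contrast (edgeR), where 17 passed an unadjusted p under 0.05 and the lowest adjusted p was 0.243.

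The inducible HSP70 genes fell, and the passage 8 library was the lowest in each treatment. *Hspa1b*, a heat-inducible HSP70, stood at 53.7 against 81.3, 71.6 and 74.4 CPM in DMSO, 15.4 against 23.1, 17.03 and 22.6 CPM in torin1 and 47.9 against 88.5, 83.2 and 74.9 CPM in MK-8722. *Hspa1a* fell by 0.95 and *Hspa1b* by 0.59 on the log2 scale. The 2 genes are near-identical copies between which reads can be split, so their separate values are uncertain. Of 23 ER chaperone and unfolded protein response genes 3 were lower and none higher (1.36% and 1.72% of all genes), with a median of -0.08. At an unadjusted p under 0.05 (edgeR) 11 were lower and 2 higher, against 1586 and 1885 of all 14106 genes. The list mean at passage 8 differed by -0.145 in DMSO, -0.179 in MK-8722 and -0.090 in torin1. *Xbp1*, a transcription factor of the unfolded protein response, fell by 0.34, whereas *Hsp90b1* stood at -0.01 ± 0.05 (edgeR adjusted p = 0.899). The chemokine *Cxcl10* stood at 28.1 against 59.1, 45.5 and 70.2 CPM in DMSO, 35.5 against 64.99, 47.1 and 88.9 CPM in torin1 and 70.2 against 142, 87.6 and 142 CPM in MK-8722, and fell by 0.92 (edgeR adjusted p = 0.013). It was the only called gene of 59 interferon-stimulated genes, whose median was -0.11 (1.36% of all genes were called lower). *Ccl7* fell by 0.64. Of 11 fibroblast markers 3 were higher (*Pdgfra*, *Col3a1* and *Fn1*) and 1 was lower, against 1.72% and 1.36% of all genes. The lower 1, *S100a4*, fell by 0.30. The other largest falls that the naming rule gave were *Gm15387*, *Prl2c2*, *Gm4294*, *Prl2c3*, *Sync*, *Vegfd*, *Gm42674* and *Abcg2*, at -1.15, -0.82, -0.79, -0.77, -0.64, -0.63, -0.63 and -0.62 on the log2 scale. *Prl2c2* and *Prl2c3* are close paralogs, and *Gm15387* and *Gm4294* are annotated as processed pseudogenes, so that reads may belong to near-identical genes. Pseudogenes made up 28 of the 192 lower genes (14.6%) and 5 of the 242 higher ones (2.07%), against 8.4% of the genes tested.

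Of 44 mitosis genes none was called, with a median log2 fold change of -0.11. At an unadjusted p under 0.05 (edgeR) 28 of them were lower and none was higher (1586 and 1885 of all 14106 genes). The passage 8 library was the lowest for 39 of them in DMSO, 37 in MK-8722 and 21 in torin1 (29.5%, 30.2% and 26.2% of all genes). Of 43 DNA replication genes none was called and the median was 0.02. Among 62 lysosomal genes 1 was higher, *Sqstm1*, an autophagy receptor, at 0.35, and 1 was lower, *Atp6v0a1*, a V-ATPase subunit, at -0.33 (1.72% and 1.36% of all genes). *Sqstm1* stood at 714 against 527, 516 and 508 CPM in DMSO, 629.97 against 599.8, 658 and 589 CPM in torin1 and 855 against 601, 588 and 580.1 CPM in MK-8722, so that its passage 8 rise lay outside the later range in DMSO and MK-8722 and inside it in torin1.

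Over all genes, the treatments gave unequal counts. Within DMSO 21 genes were higher (0.149%) and 3 lower (0.0213%) at passage 8, within MK-8722 209 were higher (1.48%) and 57 lower (0.404%, in all 1.89%), and within torin1 none was called (edgeR, 1122 genes at an unadjusted p under 0.05). With 1 passage 8 library in each treatment these counts do not show that treatments differ, and the difference itself was called for 2 genes (0.0142%), both smaller under torin1. *Agap1* (GRCm38 chromosome 1, 89454806 to 89897617), which encodes an ARF GTPase-activating protein, stood at 124 against 72.7, 68.9 and 71.6 CPM in DMSO, 66.97 against 66.7, 74.6 and 71.5 CPM in torin1 and 125 against 70.8, 57.4 and 60.6 CPM in MK-8722. *Fyn* (GRCm38 chromosome 10, 39368855 to 39565381), a SRC family kinase, stood at 103 against 74.9, 75.95 and 71.96 CPM in DMSO, 59.00 against 61.9, 67.03 and 63.9 CPM in torin1 and 122 against 86.5, 82.6 and 82.5 CPM in MK-8722. Passage 8 was the highest library in DMSO and MK-8722 for both, and in torin1 *Fyn* was at its lowest there and *Agap1* inside the later range. The contrasts were -0.98 ± 0.12 and -0.63 ± 0.08 (edgeR adjusted p = 0.0274 for both). Neither was called when the DMSO library of passage 9 or 10, the torin1 library of passage 10 or 11 or the MK-8722 library of passage 11 was left out. Against MK-8722 alone 3 genes were smaller under torin1 (0.0213%), and against DMSO alone none was called (edgeR, 631 at an unadjusted p under 0.05). DESeq2 called 11 genes larger and 45 smaller under torin1, limma voom 1 and 2, and edgeR with passage as a block 41 and 65.

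The passages were then compared in pairs, with 3 libraries each. The 3 libraries of a passage were 1 per treatment and deviated together (r = 0.06 to 0.32). They are not shown to be independent replicates of a passage, so the calls do not measure the spread between cultures. Passage 8 differed from passages 9, 10 and 11 at 536, 362 and 1163 genes (3.8%, 2.57% and 8.24%), and the later passages differed among themselves at 204 (9 against 10, 1.45%), 334 (9 against 11, 2.37%) and 263 genes (10 against 11, 1.86%). The ATF4 list set passage 8 apart rather than following passage number: 22 of its 39 genes were higher at passage 8 than at 9 (1.65% of all genes were higher and 2.15% lower), 21 than at 10 (1.52% and 1.04%) and 28 than at 11 (3.97% and 4.27%), where 1 was lower, with medians of 0.325, 0.34 and 0.386. Between the later passages the medians were 0.0239 (9 against 10, no gene called, where 1.14% of all genes were higher and 0.305% lower), 0.0542 (9 against 11, 1 gene higher and 2 lower, where 0.971% and 1.4% were) and 0.0313 (10 against 11, 1 gene higher, where 0.454% and 1.41% were). *Cth* stood at 1.16 between passages 8 and 9 and at 0.44 between 9 and 11 (edgeR adjusted p = 0.00452 and 0.336). *Pdgfra*, *Col12a1* and *Nt5e* changed over the later passages too, at 0.45, 0.57 and 1.04 between passages 9 and 11, beside 0.50, 0.47 and 0.81 between 8 and 9, and all 3 were called in both (edgeR). *Scd2* stood at -0.34 between 8 and 9 and at -0.79 between 9 and 11. The sterol list likewise changed among the later passages, with medians of -0.10 between 8 and 9 and -0.23 between 9 and 11. Of its 34 genes 3 were called in the first pair and 8 in the second (3.8% and 2.37% of all genes).

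In WT MEFs the ATF4 targets stood on the other side of 0. The 3 WT passage 8 libraries were compared with the 9 WT libraries of passages 7, 9 and 11, and no gene was called of 14908 (edgeR, 1029 at an unadjusted p under 0.05). Without the WT passage 11 libraries, in which interferon-stimulated genes stood apart (median log2 difference of that list -2.51 with them and -0.62 without), 1 gene was called. The 39 ATF4 targets had a median of -0.22 in WT, with 38 negative, against 0.34 in *tfeb tfe3* DKO. The difference between genotypes was called for 427 of 15401 genes (2.77%), 228 higher and 199 lower in *tfeb tfe3* DKO, and 22 of the 39 ATF4 targets were among the higher ones (1.48% of all genes), or 25 without WT passage 11. *Slc7a11* stood at -0.67 in WT, a genotype difference of 1.72 ± 0.36 (edgeR adjusted p = 0.0144), and *Cth* at -0.54, a difference of 1.81 ± 0.36 (edgeR adjusted p = 0.0111). Both were among the largest rises of the list in DKO, so the size of these differences follows in part from the choice. Of the 242 genes higher at passage 8 in *tfeb tfe3* DKO, 238 were tested in both lines and 126 (52.9%) had a called genotype difference, as had 80 of 184 lower genes (43.5%), counts that the selection on the DKO effect, which is a term of that difference, raises above the 2.77% of all genes. The median of the 238 in WT was -0.09 and that of the 184 was 0.05. Whether a passage number marks the same time in culture in both lines is not given in the sources used here.

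**Figure D5:**
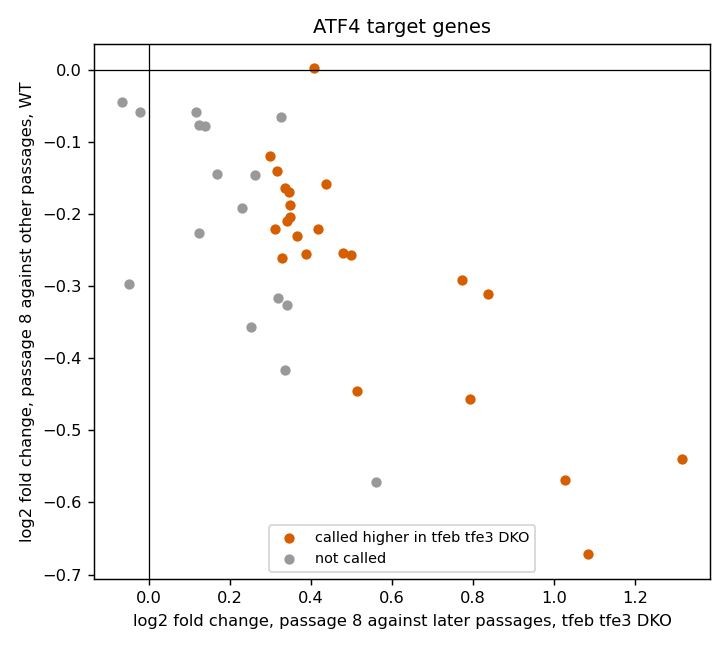
Log2 fold change of passage 8 against the other passages for the 39 ATF4 target genes, in *tfeb tfe3* DKO (horizontal axis) and WT MEFs (vertical axis), with the 23 genes called in DKO in orange. In WT 38 of the 39 points lie under 0, and in *tfeb tfe3* DKO 36 lie above it.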

How the data were processed

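Polyadenylated RNA of 24 MEF samples was sequenced in paired-end reads, and the authors aligned them with STAR and estimated counts per gene with Salmon within nf-core/rnaseq on GRCm38, with unique molecular identifiers taken into account. The deposited table holds these estimated counts, unnormalized, for 55487 genes. They were rounded and scaled by TMM. Genes with low counts were removed with filterByExpr (minimum count 10, groups of 4 libraries), which left 14106 genes. Passage 8 was tested in edgeR 4.0.16 (quasi-likelihood F test, edgeR 3 form, R 4.3.3) on the 12 *tfeb tfe3* DKO libraries with treatment as covariate, and the torin1 contrast on 6 group means. Adjusted p-values are Benjamini-Hochberg values over all genes tested, with a threshold of 0.05 and a fold change of 1.2, as in the study. The study removed a batch effect with limma, which was not repeated because every sample carries the same batch label. The residual degrees of freedom were 8 and 6. CPM values use TMM-scaled totals, and log2 CPM a prior count of 2. DESeq2 1.42.0 and limma 3.58.1 were alternatives. Transcript estimates were not used. Tested on simulated data, the passage 8 test (13965 genes) called 75 of 99 genes changed by 0.5 on the log2 scale and 83 of 96 changed by 1, and the torin1 contrast (13966 genes) 30 of 98 and 70 of 100. Of the unchanged genes, 6 of 13770 and 5 of 13768 were called. The simulated libraries were independent draws without a deviation shared within a passage, so these rates may not hold for the real libraries. The named genes were the 12 largest rises and falls above a floor of 2 in average log2 CPM whose passage 8 library lay outside the later range in every treatment, up to 4 called and up to 2 uncalled genes of each list with 3 or more calls, the called genes of the torin1 contrast and 8 fixed genes. For the largest rises and falls, that position outside the later range follows from the rule. *Etv5*, *Tnc*, *Mmp13*, *Sqstm1*, *Atp6v0a1* and the further ATF4 targets were named after their values were seen. Members and lists were chosen with earlier results of these data known. Libraries of the same passage but different treatments deviated together (r = 0.06 to 0.32, 12 pairs, against -0.26 to 0.02 in 36 pairs of different passages). Pairs with the same replicate number ran from r = -0.19 to 0.20 and were of mixed kinds. In torin1 and MK-8722 a replicate number stood for the same passage, whereas in DMSO it did so at passage 10 only.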

Additional observations from a re-analysis of the deposited data

Results flagged for a closer look

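The torin1 contrast was called for *Agap1* at -0.9828 and for *Fyn* at -0.6304 on the log2 scale, the difference between the passage 8 effect in torin1 and that in the other treatments (edgeR). Passage 8 had 1 library in each treatment, so the test takes its spread from the later libraries alone, and neither gene was called in a fit of all 24 libraries or in 5 of the fits that left out 1 library. Between genotypes, a tested difference in the passage 8 effect was called for 228 genes with the higher effect in the knockout and for 199 with the lower. *Gm15387* stood at 11.1 CPM in the MK-8722 library of passage 9, the highest of the 12 libraries, and on the log2 scale, relative to its treatment, its gap to the nearest of the 9 later libraries made up 0.522 of their range. The RNA integrity number of the MK-8722 library of passage 10 was 7.9, with a gap of 0.9 of the range over the later libraries. Chance alone flags some groups by such a gap.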

How the results depend on the processing

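The number of called genes depended on the model. The 47 called named genes kept their sign in all 1363 estimates of the alternative runs and were still called in 1050 of them. These genes were chosen from the same libraries, so the unchanged sign follows in part from the selection. Against 242 higher and 192 lower genes, the counts were 733 and 461 with the adjusted p alone, 2 and 0 when tested against a fold change of 1.2, 322 and 426 with no filter, 108 and 44 in limma voom with passage as a random block, 6 and 1 with 1 summed library per passage, 12 and 5 without DMSO, and 19 and 5 without MK-8722. Leaving out 1 library gave 9 to 330 higher and 2 to 230 lower genes, the lowest without the MK-8722 library of passage 8. With the replicate number as a block 65 were higher and 60 lower. In torin1 and MK-8722 that number stands for the passage, so the block overlaps with the passage 8 term, and the lower counts follow in part from the design. Against 0 genes larger and 2 smaller under torin1, the counts were 106 and 104 with no filter, 11 and 45 in DESeq2, 1 and 2 in limma voom, 41 and 65 with passage as a block, 2 and 17 with the replicate block, and 0 smaller both against a fold change of 1.2 and in a fit of all 24 libraries. Leaving out 1 library gave 0 to 4 larger and 0 to 25 smaller, the highest without the MK-8722 library of passage 9, and 2 larger and 7 smaller without the torin1 library of passage 9. In WT 1 gene was called without the passage 11 libraries, an alternative chosen after seeing the data, as were those on the ATF4 list. The cause of these shifts was not tested. With 1 passage 8 library per treatment, differences between treatments are limited in precision.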

Other observations

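Single genes of other lists changed at passage 8 in *tfeb tfe3* DKO, named after their values were seen. Of all genes tested, 1.72% were called higher and 1.36% lower, and counts of 1 or 2 genes are not read as results about their lists. *Grb10*, an imprinted adaptor that limits insulin receptor signalling, stood at 9.69 against 4.57, 3.66 and 1.87 CPM in DMSO, 4.18 against 2.45, 2.81 and 1.99 CPM in torin1 and 7.04 against 3.46, 3.41 and 2.52 CPM in MK-8722, and was the 1 higher gene of 9 imprinted growth genes, at 1.19 on the log2 scale. Passage 8 was the highest in each treatment. *Ciart*, a repressor of the circadian clock, was the 1 higher gene of 17 clock genes, at 0.86. *Ccn2*, a matricellular protein, rose by 0.35 and *Grem1*, a BMP antagonist, by 0.41, the 2 higher genes of 17 TGF-beta and BMP targets, and *Ccn2* and *Nt5e* were the 2 higher of 18 YAP and TEAD targets. Of 20 NRF2 antioxidant genes *Hmox1* and *Slc7a11* were higher, at 0.28 and 1.08, and *Slc7a11* is also an ATF4 target.

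Of 25 p53 targets *Gadd45a* was higher at 0.37 and *Sesn1* lower at -0.31 (1.72% of all genes were called higher and 1.36% lower). Of 16 myofibroblast genes *Ltbp2* was higher at 0.36. *Cdkn2d*, a CDK inhibitor, was lower at -0.40 (1 of 18), *Irf1* at -0.29 (1 of 23 interferon signalling genes) and *Krt19*, an epithelial keratin, at -0.32. *Pdk1* and *Ero1l*, of the hypoxia list, stood at -0.31 and 0.28. No gene was called of 22 MHC class I genes or of 13 genes of the mitochondrial genome. At an unadjusted p under 0.05 (edgeR) 2 of the former were lower and 4 of the latter higher. Of all 14106 genes 1586 were lower and 1885 higher at that p.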
